A study of Mus musculus with 8 samples.

Results

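The 34 genes described here encode the enzymes and regulators of glycolysis, of the entry of pyruvate into mitochondria and of the pentose phosphate pathway. They were taken by gene symbol from the 23131 genes of a table of normalised counts, and all 34 were found. The question was how their transcripts differ in granulocyte-macrophage progenitors (GMP) when Rnaseh2b is deleted. The product of Rnaseh2b is part of RNase H2, which excises ribonucleotides that polymerases build into genomic DNA.

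GMP are the marrow progenitors of neutrophils and monocytes. They were sorted by flow cytometry from 4 RH2hKO mice, which are Rnaseh2b fl/fl with VavCre+, and from 4 RH2hWT littermates, which are Rnaseh2b fl/fl with VavCre-. Both groups are C57BL/6 and carry the floxed Rnaseh2b alleles, and only the RH2hKO mice carry the recombinase. Per the labels' protocols polyadenylated RNA was sequenced, and the sources used here give neither the age nor the sex of the mice. Vav-Cre acts across the blood-forming lineages and not in GMP alone, so the cells sorted here descended from stem cells in which the gene could already be deleted. The RH2hKO libraries are replicates 5 to 8 and the RH2hWT libraries are replicates 1 to 4.

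Glycolysis splits glucose into pyruvate, yielding ATP and NADH, and lactate dehydrogenase turns pyruvate into lactate. The pentose phosphate pathway branches off at glucose 6-phosphate: its oxidative arm makes NADPH, and its non-oxidative arm exchanges sugars with glycolysis and gives ribose 5-phosphate for nucleotides. Neutrophils draw most of their energy from glycolysis, and NADPH is the substrate of the oxidase with which mature neutrophils make superoxide. The tumour suppressor p53 is known to act on the pathway through Tigar, a phosphatase that lowers fructose 2,6-bisphosphate, which was first found as a p53-induced gene in human cells.

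Libraries held 28352720 to 45655518 reads assigned to genes. Rnaseh2b, the deleted gene, had 117.9, 127.5, 75.9 and 95.3 normalised counts in RH2hKO replicates 5 to 8, against 2288, 2470, 1249.2 and 1207.3 in RH2hWT replicates 1 to 4, with no overlap between the groups. Cdkn1a, a cell cycle inhibitor induced by p53, averaged 4955 ± 1154 normalised counts in RH2hKO GMP and 427 ± 60.7 in RH2hWT GMP (SD, n = 4 each). The transcript of Trp53, which encodes p53, averaged 5811 ± 401.1 in RH2hKO GMP and 5269 ± 479 in RH2hWT GMP, and its difference did not pass the test. Of 14 p53 target genes of arrest and apoptosis, 12 were higher in RH2hKO GMP by limma at an adjusted p below 0.05, beside 1.19% of all genes tested. The median log2 fold change of these target genes was 1.98. The summed level of 14 GMP and primary granule markers was 1324722 to 1406312 in RH2hKO libraries and 1497453 to 1622219 in RH2hWT libraries, and none of the 14 passed the test. Every RH2hKO sum lay below every RH2hWT sum, a pattern that 3.42% of single genes tested also had. Of the 14, 10 had a log2 fold change below 0 and 4 above 0 (median -0.14), and 5 had an unadjusted p below 0.05, beside 13.2% of all genes tested. All of the 14 were detected. So were all listed markers of eosinophils, mast cells and basophils, later neutrophils, and monocytes and dendritic cells, so detection alone does not identify the sorted cells. RH2hKO replicate 8 and RH2hWT replicate 1 lay apart from the other libraries on the second principal component (17.7% of the variance).

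Of the 34 genes, 1 was called lower in RH2hKO GMP, Pfkfb4, and none was called higher. Over all 16688 genes tested, 0.21% were called lower, 1.19% were called higher and 1.4% in either direction, by limma on log2(normalised count + 1) with Benjamini-Hochberg adjustment over all of them. The median log2 fold change of the 34 genes was -0.03, beside -0.01 over all genes tested. Of the 34, 20 had a log2 fold change below 0 and 14 above 0, and 27 lay within 0.2 of 0. The genes together took 0.840 ± 0.0328% of all normalised counts in RH2hKO libraries and 0.824 ± 0.0467% in RH2hWT libraries (SD, n = 4 each). In these bulk samples, fewer cells of a type and less RNA per cell cannot be told apart.

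**Figure D1:**
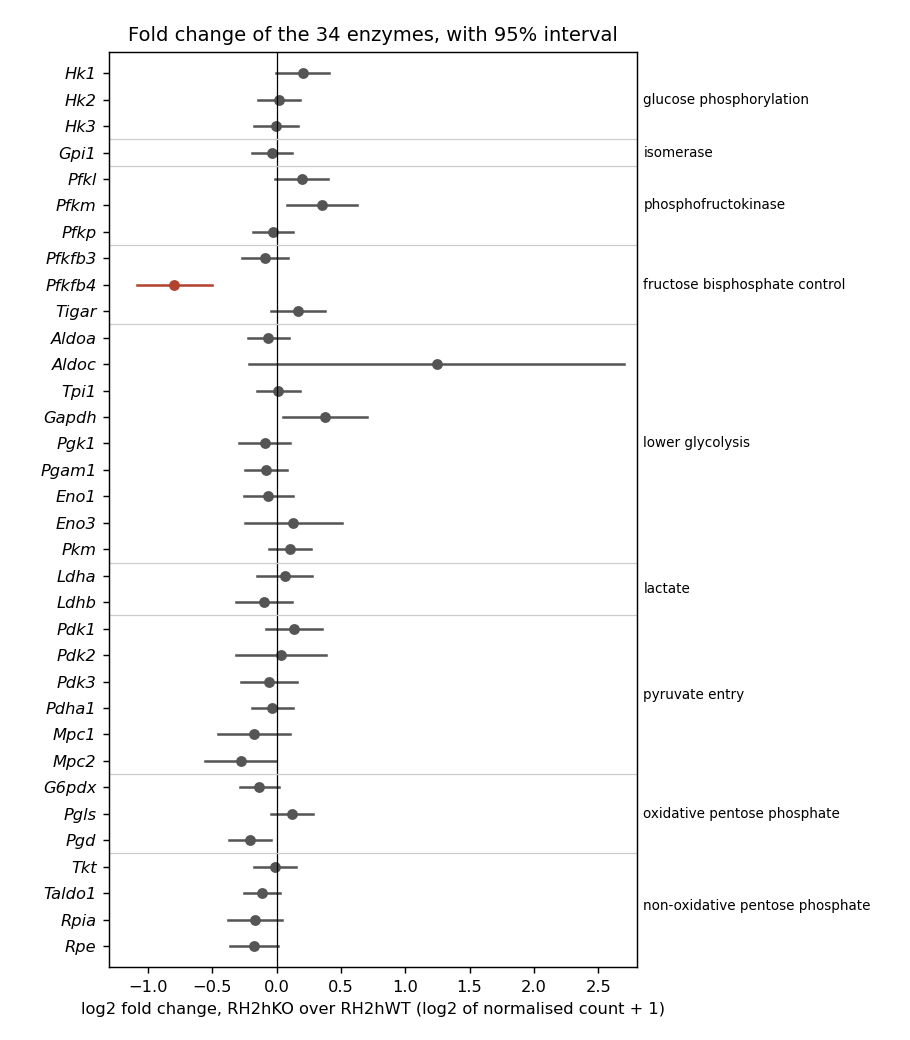
Log2 fold change of RH2hKO over RH2hWT for each of the 34 genes, ordered by step of the pathway, with bars for the 95% interval of limma over 4 libraries a group. Pfkfb4 is the gene past the threshold, at -0.79, and most of the others lie within 0.2 of 0.

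Pfkfb4 encodes one of the bifunctional enzymes that make and break fructose 2,6-bisphosphate, the strongest activator of phosphofructokinase. The gene lies at chr9:108991778-109032228 on the plus strand of mm10. It had 253.0, 244.3, 268.2 and 257.0 normalised counts in RH2hKO replicates 5 to 8, against 408.4, 511.0, 369.8 and 503.1 in RH2hWT replicates 1 to 4. Every RH2hKO library lay below every RH2hWT library, and the RH2hKO libraries lay close together. It was the only one of the 34 genes whose groups did not overlap. Over all genes tested, 3.42% had every RH2hKO library below every RH2hWT library, 3.99% had every one above, and so 7.41% did not overlap in either direction. The means were 255.6 ± 9.92 in RH2hKO GMP and 448 ± 69.97 in RH2hWT GMP (SD, n = 4 each), a log2 fold change of -0.79 (SE 0.136, 95% interval -1.09 to -0.50), or 0.576-fold (limma, adjusted p = 0.0073). By p it ranked 101 among all genes tested. No near-identical copy of Pfkfb4 was found among the genes of the table, and none of its 50-base windows occurs in another gene.

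Pfkfb3, the other enzyme of this family among the 34, is the isoform with the strongest kinase activity relative to its phosphatase. It averaged 3093 ± 290.3 normalised counts in RH2hKO GMP and 3287 ± 234 in RH2hWT GMP (SD, n = 4 each), with a log2 fold change of -0.09. Per kilobase of exonic length, Pfkfb4 made up 11.4 ± 1.08% of the pair in RH2hKO libraries and 17.4 ± 1.78% in RH2hWT libraries, and Pfkfb3 made up the rest. The lower share of Pfkfb4 and its lower level rest on the same counts.

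Tigar encodes the p53-linked phosphatase described above, at chr6:127085116-127109557 on the minus strand of mm10. It had 1515.2, 1324.7, 1225.5 and 1503.3 normalised counts in RH2hKO replicates 5 to 8, against 1344.2, 1131.6, 1305.5 and 1171.2 in RH2hWT replicates 1 to 4. The groups overlapped: RH2hKO replicates 6 and 7 lay within the range of the RH2hWT libraries. Its means were 1392 ± 141 in RH2hKO GMP and 1238 ± 103 in RH2hWT GMP (SD, n = 4 each), with a log2 fold change of 0.17 (SE 0.097, 95% interval -0.04 to 0.37; limma, adjusted p = 0.494). The upper bound of that interval is under the log2 fold change of 3.51 for Cdkn1a and the median of 1.98 for the 14 p53 targets of arrest and apoptosis. The 16 p53-linked metabolic genes, Tigar among them, had a median of 0.05. The 3 genes whose values over the 8 libraries were most like those of Tigar were Odc1 (Pearson r = 0.959), Cdr2 (r = 0.951) and H2-M3 (r = 0.949), as a description over 8 libraries that share their groups. None of the 3 passed the test between groups.

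**Figure D2:**
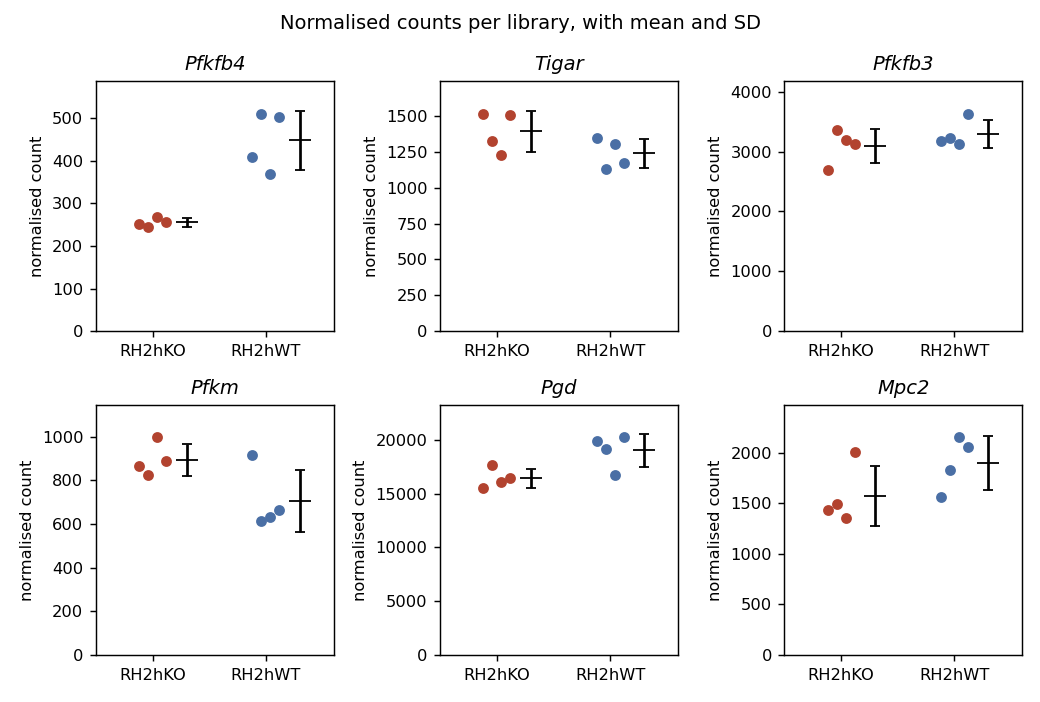
Normalised counts in each library for 6 genes, RH2hKO to the left of RH2hWT, with points for libraries in replicate order and bars for the mean and SD of 4 libraries. The RH2hKO points of Pfkfb4 (244.3 to 268.2) lie below all of its RH2hWT points (369.8 to 511.0), while the groups overlap for Tigar.

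Glucose is first phosphorylated by hexokinases. Hk3, an isoform found in myeloid cells, had 20333.9, 20083.9, 21178.0 and 17055.8 normalised counts in RH2hKO replicates 5 to 8, against 19086.8, 20020.1, 18463.8 and 21275.4 in RH2hWT replicates 1 to 4. The ranges overlapped, and the log2 fold change was -0.01, or 0.029 at libraries scaled to equal totals. Per kilobase, Hk3 made up 76.5 ± 2.21% of the 3 hexokinases in RH2hKO libraries and 78.0 ± 1.67% in RH2hWT libraries. Hk1, the widely expressed isoform, made up 13.5 ± 2.00% in RH2hKO libraries and 11.9 ± 1.11% in RH2hWT libraries. Hk2, the inducible isoform, made up 10.02 ± 0.257% in RH2hKO libraries and 10.1 ± 0.627% in RH2hWT libraries. Hk3 was the main hexokinase transcript in every library of both groups.

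Gpi1, which turns glucose 6-phosphate into fructose 6-phosphate, averaged 23738 ± 1218 normalised counts in RH2hKO GMP and 24373 ± 1630 in RH2hWT GMP (SD, n = 4 each). Phosphofructokinase commits sugar to glycolysis. Its liver-type gene Pfkl averaged 5642 ± 401 in RH2hKO GMP and 4950 ± 703 in RH2hWT GMP, with a log2 fold change of 0.20 (limma, adjusted p = 0.401). The muscle-type gene Pfkm, singled out after its values were seen, had 865.2, 826.3, 996.7 and 887.3 normalised counts in RH2hKO replicates 5 to 8, against 915.5, 614.9, 630.9 and 663.4 in RH2hWT replicates 1 to 4. RH2hWT replicate 1 lay among the RH2hKO libraries and the other controls lay below them. The log2 fold change of Pfkm was 0.36 (limma, adjusted p = 0.234), and without RH2hWT replicate 1 it was called higher. The sources used here do not say whether counting used strand. On the opposite strand Pfkm overlaps Senp1, whose mean of 4237 normalised counts is above its own. Per kilobase, Pfkl made up 57.8 ± 1.41% of the 3 phosphofructokinases in RH2hKO libraries and 56.6 ± 1.92% in RH2hWT libraries. The length used is the union of all exons, 13401 bases for Pfkp and 6675 for Pfkl. A gene whose transcripts in these cells are shorter than that union has its share set too low, which was not tested. Pfkp also overlaps Pitrm1 on the opposite strand, whose mean was 4217 normalised counts.

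**Figure D3:**
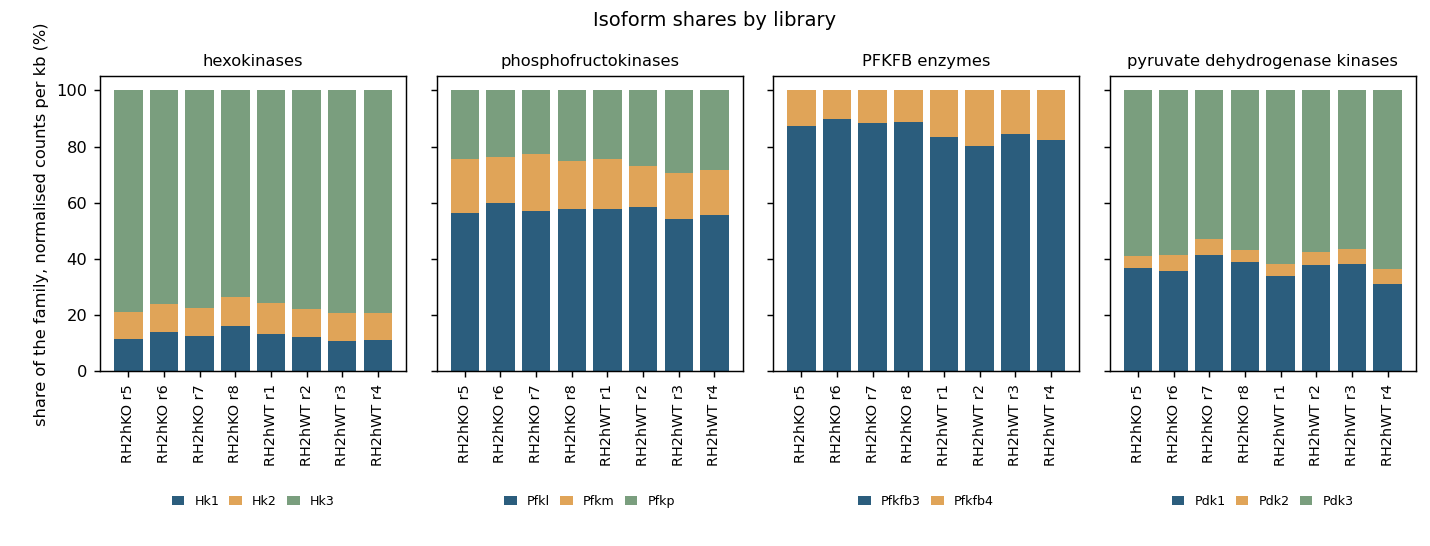
Share of each isoform in its enzyme family, in percent of normalised counts per kilobase of exonic length, as stacked bars for RH2hKO replicates 5 to 8 followed by RH2hWT replicates 1 to 4 in each of 4 families. Hk3 makes up at least 73.6% of the hexokinases in every library, and the Pfkfb4 share is lower in the RH2hKO libraries.

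The lower part of glycolysis turns the split sugar into pyruvate. The highest row of the 34 was Pkm, pyruvate kinase, with 41481.6, 44592.5, 43031.3 and 45770.3 normalised counts in RH2hKO replicates 5 to 8, against 44818.7, 41078.3, 37003.8 and 40353.0 in RH2hWT replicates 1 to 4. The groups overlapped and the log2 fold change was 0.10 (limma, adjusted p = 0.619). Of the 9 genes of this part, 4 had a log2 fold change below 0 and none passed the test. The largest difference in size was that of Aldoc, an aldolase known from brain, at 1.24, but its row held a mean of only 22.8 normalised counts and its interval, -0.21 to 2.70, spanned 0. Per kilobase, Pkm stood at 8742 normalised counts in RH2hKO libraries and 8161 in RH2hWT libraries, and Aldoa, the main aldolase, at 8521 in RH2hKO libraries and 8924 in RH2hWT libraries. The order of these neighbours was not tested. Lactate dehydrogenase A, Ldha, averaged 20421 ± 3027 normalised counts in RH2hKO GMP and 19459 ± 1909 in RH2hWT GMP, and neither Ldha nor Ldhb passed the test.

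Pyruvate enters mitochondria through the carrier made of Mpc1 and Mpc2 and is oxidised by pyruvate dehydrogenase, which the Pdk kinases switch off. Pdha1, a catalytic subunit of pyruvate dehydrogenase, averaged 8806 ± 264 normalised counts in RH2hKO GMP and 9033 ± 799 in RH2hWT GMP (SD, n = 4 each). None of the 6 genes of this step passed the test. Mpc2, singled out after its values were seen, averaged 1572 ± 294 in RH2hKO GMP and 1898 ± 264 in RH2hWT GMP, with a log2 fold change of -0.28 (95% interval -0.55 to -0.0043; limma, adjusted p = 0.370). Its RH2hKO replicate 8, at 2004.7, lay within the RH2hWT range of 1559.0 to 2153.7. Among the kinases, Pdk3 made up 56.8 ± 2.83% per kilobase in RH2hKO libraries and 59.8 ± 3.44% in RH2hWT libraries, and Pdk1 made up 38.2 ± 2.53% in RH2hKO libraries and 35.2 ± 3.43% in RH2hWT libraries.

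In the oxidative arm, Pgd, the second NADPH-producing dehydrogenase, had 15567.7, 17680.9, 16068.1 and 16444.7 normalised counts in RH2hKO replicates 5 to 8, against 19891.0, 19201.2, 16753.6 and 20239.5 in RH2hWT replicates 1 to 4. RH2hKO replicate 6 lay above RH2hWT replicate 3 and the other RH2hKO libraries lay below all controls. Its log2 fold change was -0.21 (SE 0.0760, 95% interval -0.37 to -0.05; limma, adjusted p = 0.243). G6pdx, the first enzyme of this arm, had a log2 fold change of -0.13, and Pgls, the lactonase between them, 0.12. In the non-oxidative arm all 4 genes had a log2 fold change below 0, with Tkt turning to 0.024 at libraries scaled to equal totals, and none of the 4 passed the test. Tkt, transketolase, was the highest of them at 41383 ± 1943 normalised counts in RH2hKO GMP and 41767 ± 2813 in RH2hWT GMP, a log2 fold change of -0.01, and the lowest log2 fold change of the 4 was -0.17, for Rpe, an epimerase.

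Of the 34 genes, 5 had an unadjusted p below 0.05, beside 13.2% of all genes tested. They were Pfkm and Gapdh above 0 and Pfkfb4, Pgd and Mpc2 below 0. The adjusted p of the 33 genes other than Pfkfb4 ran from 0.234 to 0.985 (limma). Among 26 genes that averaged 1000 normalised counts or more, the log2 fold changes ran from -0.28 to 0.20, and the outermost bounds of their 95% intervals were 0.682-fold and 1.33-fold. A change larger than those bounds is outside the intervals for these 26 genes, while a p that misses the threshold does not show that the groups are alike.

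The level of many of the genes varied with the library within a group. RH2hWT replicate 3 held the lowest RH2hWT value for 21 of the 34 genes and replicate 1 the highest for 19. Among RH2hKO libraries, replicate 8 held the highest value for 17 genes and replicate 5 the lowest for 15. The median log2 difference from the RH2hWT mean was -0.09 in RH2hKO replicate 5 and 0.06 in RH2hKO replicate 8, and -0.12 in RH2hWT replicate 3 and 0.08 in RH2hWT replicate 1. These spreads within the groups exceed the difference of -0.03 between them.

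**Figure D4:**
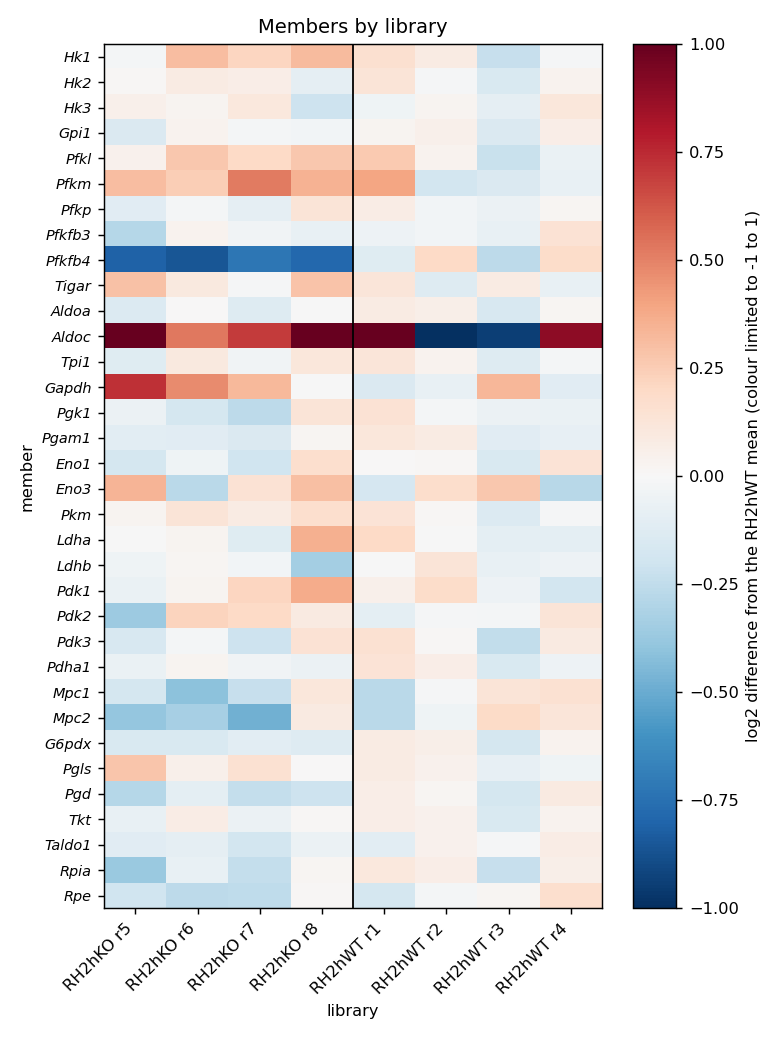
Heat map of the log2 difference of each of the 34 genes (rows, in pathway order) from its RH2hWT mean in each library (columns, RH2hKO to the left of the black line and RH2hWT to its right), with the colour limited to -1 to 1. Pfkfb4 is blue in all 4 RH2hKO libraries, Aldoc varies most between libraries of 1 group, and most other cells are pale.

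Glycolytic genes have left many processed pseudogenes in the mouse genome, copies of the messenger RNA without introns. Reads that match a parent and its copy equally well can be counted for either, and the sources used here do not say how such reads were counted. Copies were sought among the genes of the table at 90% identity or more over at least 150 bases and at least 50% of the copy. There were 190 for 15 of the 34 genes, 184 of them annotated as pseudogenes, and 19 genes had none. Gapdh, glyceraldehyde 3-phosphate dehydrogenase, had 144 copies. The following sequences show how close copies come for Gapdh and Pgk1, whose levels turn on them. The stretch was chosen by moving away from the stop codon in steps of 30 bases. It is the first where the copies with the highest values aligned without a gap and with few mismatches. The closeness shown was thus partly set by that choice. Each sequence is 60 coding bases that end 30 bases before the end of the stop codon, 5′ to 3′, from GENCODE M21 transcripts. Capitals mark a base that differs from the parent gene.
Gapdh: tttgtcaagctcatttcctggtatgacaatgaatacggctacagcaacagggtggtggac
Gm10327: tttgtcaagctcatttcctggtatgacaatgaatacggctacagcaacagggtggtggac
Gm4654: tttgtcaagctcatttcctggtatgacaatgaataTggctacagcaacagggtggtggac
Gm2445: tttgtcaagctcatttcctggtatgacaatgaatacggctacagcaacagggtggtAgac
Pgk1: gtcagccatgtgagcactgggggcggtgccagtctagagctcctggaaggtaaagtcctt
Pgk1-rs7: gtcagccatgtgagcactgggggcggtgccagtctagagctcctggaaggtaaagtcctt

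Gapdh lies on chromosome 6 and its copies Gm10327, Gm4654 and Gm2445 on chromosomes 10, 14 and 13. Pgk1 lies on chromosome X and Pgk1-rs7 on chromosome 12. Gm10327 and Pgk1-rs7 are identical to their parents over these bases, and Gm4654 and Gm2445 differ by 1 base each. Of the 50-base windows of Gapdh, 58.3% also occur in a pseudogene of the table, and of those of Pgk1, 68.0% do. The shares were 41.5% for Pgam1, 36.2% for Eno1, 18.5% for Gpi1 and 18.4% for Pkm, and 0 for Pfkfb4, Tigar, the 3 hexokinases and Tkt. With any other gene counted, the share was 49.5% for Eno1, 1.83% for Tigar and 1.64% for Hk1.

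The copies held more counts than the gene itself for 4 genes. Gapdh itself averaged 704 normalised counts over the 8 libraries and its copies together 29586, which is 97.7% of the sum. The copies held 70.2% of the sum for Mpc1, 66.8% for Pgk1 and 63.3% for Pgam1. For Pkm the share was 30.9%, with 16991 normalised counts in the copy Gm6560, and for Gpi1 it was 44.6%. For 13 genes the share was at least 1%, at 13.5% to 97.7%. Not all of these copies are near-identical. Those of Aldoa matched at 90.6% to 92.7%, and 5.38% of the 50-base windows of Aldoa occur in a pseudogene of the table. The copy of G6pdx is the protein-coding gene G6pd2, at 93.2%. Counts in such copies need not be reads of the parent gene.

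The Gapdh row, singled out after its values were seen, and the sum over its copies differed. The row alone had 1001.1, 839.0, 754.2 and 600.5 normalised counts in RH2hKO replicates 5 to 8, against 546.3, 574.3, 758.3 and 557.8 in RH2hWT replicates 1 to 4. These groups overlapped, with a log2 fold change of 0.38 (limma, adjusted p = 0.293). Gapdh overlaps Iffo1 on the opposite strand, whose log2 fold change was 0.36 (limma, adjusted p = 0.115). Its part in the Gapdh row was not tested. Row and copies together had 30971.8, 28874.6, 31795.1 and 32252.3 normalised counts in RH2hKO replicates 5 to 8, against 33155.8, 30449.3, 25991.1 and 28825.9 in RH2hWT replicates 1 to 4. The sums averaged 30973 ± 1496 in RH2hKO GMP and 29606 ± 2999 in RH2hWT GMP (SD, n = 4 each), a log2 ratio of 0.07, and the groups overlapped. Of the 122 copies that could be tested, none passed the threshold by limma, 4 had an unadjusted p below 0.05 and the lowest adjusted p was 0.198.

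**Figure D5:**
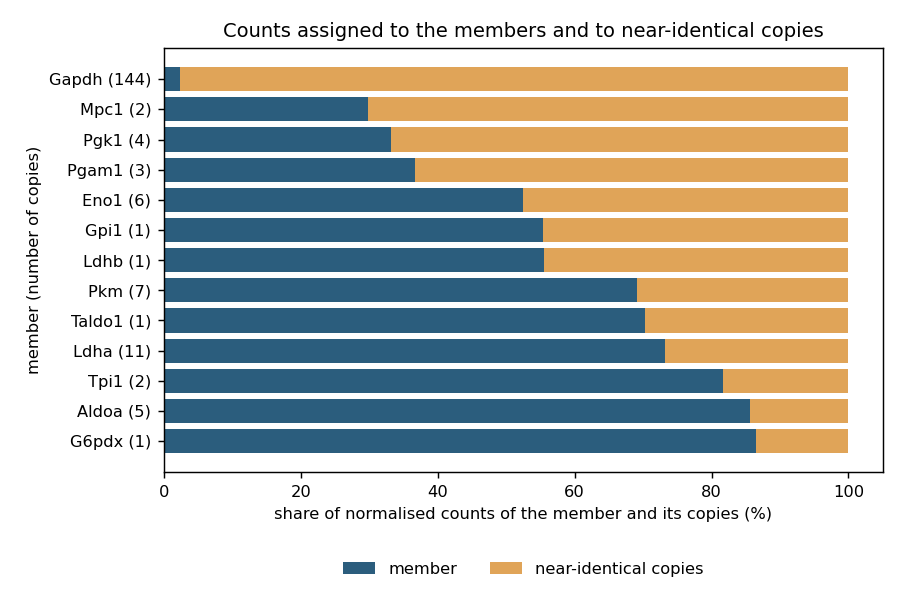
Share of the summed normalised counts over 8 libraries, in percent, for the 13 genes with at least 1% in copies. Blue is the gene itself and orange its copies. Copies, labelled near-identical in the legend, have 90% identity or more, and their number is in brackets. The copies hold 97.7% for Gapdh and 63.3% to 70.2% for Mpc1, Pgk1 and Pgam1.

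Lists of genes around the pathway are set beside all genes tested, of which 1.19% were called higher, 0.21% were called lower and 13.2% had an unadjusted p below 0.05. Of 34 other enzymes of the pathway that could be tested, none was called in either direction (limma), 5 had an unadjusted p below 0.05 and the median log2 fold change was -0.03. Of 12 transporters of glucose, lactate and pyruvate, 3 had an unadjusted p below 0.05 and 1 was called higher: Slc2a6, a glucose transporter family member, at 557 ± 69.4 normalised counts in RH2hKO GMP and 307 ± 83.5 in RH2hWT GMP (log2 fold change 0.89; limma, adjusted p = 0.0263). Of 18 regulators of glycolysis, not all of them transcription factors, 6 had an unadjusted p below 0.05 and 1 was called higher. The call was Txnip, which restrains glucose uptake, at 3702 ± 262 in RH2hKO GMP and 2354 ± 412 in RH2hWT GMP (log2 fold change 0.67, adjusted p = 0.0044 by limma). The median log2 fold change was 0.15 for the regulators (13 above 0, 5 below) and 0.13 for the transporters (9 above 0, 3 below). Hif1a and Myc, both regulators that raise glycolytic genes, were named outside the naming rule and do not stand for the list. They had log2 fold changes of 0.00 and 0.35 and did not pass the test.

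Of 15 targets of the hypoxia-inducible factor outside glycolysis, 2 were called higher and none lower, 6 had an unadjusted p below 0.05, and the median log2 fold change was -0.09. Ndrg1, a stress-induced gene, averaged 1701 ± 98.7 normalised counts in RH2hKO GMP and 1163 ± 75.5 in RH2hWT GMP (log2 fold change 0.55; limma, adjusted p = 0.0029). Ddit4, an inhibitor of mTORC1 that p53 also induces, averaged 420 ± 85.9 in RH2hKO GMP and 205 ± 52.3 in RH2hWT GMP (log2 fold change 1.04; limma, adjusted p = 0.0143). Of 16 p53-linked metabolic genes, 3 were called higher and none lower, 6 had an unadjusted p below 0.05, and the median was 0.05. Besides Ddit4 they were Sesn2, a stress-induced inhibitor of mTORC1, at 1190 ± 342 in RH2hKO GMP and 298 ± 37.2 in RH2hWT GMP, and Cpt1c, a carnitine palmitoyltransferase, at 84.2 ± 44.3 in RH2hKO GMP and 5.45 ± 4.23 in RH2hWT GMP (SD, n = 4 each). Tigar is on that list and was not among the calls. The RH2hWT mean of Cpt1c lay below the mean of 10 needed for the test. Cpt1c reached that mean only through its RH2hKO libraries.

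No call was made by limma among 21 enzymes of the tricarboxylic acid cycle (median log2 fold change -0.06, 3 with an unadjusted p below 0.05), 11 of serine and one-carbon metabolism (median 0.03, 2 with one) or 18 redox genes that use glutathione or NADPH (median -0.08, 3 with one). The 2 genes with the highest mean in each list without a call follow. Among the other enzymes of the pathway, Dld, a subunit of pyruvate dehydrogenase, had a log2 fold change of -0.16 and Pygl, a glycogen phosphorylase, 0.03. The cycle enzymes Idh2 and Sdha had -0.00099 and -0.06, and the serine pathway enzymes Psat1 and Shmt2 had -0.11 and 0.15. Gpx1, a glutathione peroxidase, averaged 62182 ± 6513 normalised counts in RH2hKO GMP and 68636 ± 7319 in RH2hWT GMP, and Gsr, which spends NADPH to reduce glutathione, 16345 ± 1834 in RH2hKO GMP and 18515 ± 1749 in RH2hWT GMP (SD, n = 4 each).

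Marker sets of other cells were measured beside the fall of Pfkfb4. Over all genes tested, 1.19% were called higher, 0.21% were called lower and 13.2% had an unadjusted p below 0.05. The counts for every marker set below stand beside these shares. The summed eosinophil markers stood at 8264.6, 10605, 5532.9 and 23345.1 in RH2hKO replicates 5 to 8 and at 18481 to 32667 in RH2hWT libraries. Of the 8 that could be tested, 2 were called lower and 7 had an unadjusted p below 0.05, with a median log2 fold change of -1.28. RH2hKO replicate 8, which lay apart on the second principal component, was at the level of the RH2hWT libraries in that sum. It had 257.0 normalised counts of Pfkfb4. This is 1 library, and the part of eosinophil-lineage cells in the Pfkfb4 level was not tested. Summed later neutrophil markers were 1891 to 4017 in RH2hKO libraries and 1852 to 7674 in RH2hWT libraries. Of the 10 tested, 1 was called higher and 8 had an unadjusted p below 0.05. Their log2 fold changes split into 5 below 0 and 5 above 0, so the median of -0.81 does not describe a shared direction.

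Summed monocyte and dendritic markers were 96650 to 121177 in RH2hKO libraries and 107518.5 to 116179 in RH2hWT libraries, with 3 of 11 called higher and a median log2 fold change of -0.01. Mast cell and basophil markers summed to 9052 to 22395 in RH2hKO libraries and 12673 to 16433 in RH2hWT libraries, with 1 of 8 called lower. Erythroid markers summed to 5456 to 7999.5 in RH2hKO libraries and 6857.5 to 8980 in RH2hWT libraries, with 1 of 7 called higher. For these 3 sets the ranges of the groups overlapped. Megakaryocyte markers summed to 1885 to 3518 in RH2hKO libraries and 1144 to 1584 in RH2hWT libraries, with 2 of 5 called higher. Stromal and endothelial markers summed to 5310 to 6144 in RH2hKO libraries and 3828 to 4749 in RH2hWT libraries, with 1 of 2 called higher. Of the 7 stromal and endothelial markers in the data, only these 2 reached the mean of 10 needed for the test. Nearly all of that sum comes from them, so it does not measure the set. For the megakaryocyte and the stromal and endothelial sums the groups did not overlap. Of single genes tested, 7.41% did not overlap in either direction. Lymphoid markers summed to 10115 to 13865 in RH2hKO libraries and 10569 to 15403 in RH2hWT libraries, with none of 3 called by limma and 1 with an unadjusted p below 0.05. Of the 6 lymphoid markers in the data, only these 3 reached the mean of 10. Nearly all of the lymphoid sum comes from them, so it does not measure that set either. Immediate early genes summed to 31583 to 104792 in RH2hKO libraries and 40068 to 74487 in RH2hWT libraries, with none of 12 called and none with an unadjusted p below 0.05. The part of these cells and genes in the Pfkfb4 level was not tested.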

How the data were processed

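RNA of sorted GMP was sequenced as paired reads of 50 bases, and groups were taken from the labels. The authors deposited 1 signal value per gene and library, gene counts divided by 1 factor per library. The submitters' processing notes name GSNAP 2020-12-16, featureCounts 2.0.1, DESeq2 1.30.1 and mm10. The annotation, the strand setting and the treatment of multiply aligned reads are not stated in the labels, notes or headers used here. Of the deposited values above 0, 99.997% were whole reads within 0.051 normalised counts. The gene length deposited beside them equals the union of the exons in GENCODE M21 for all 34 genes.

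The test was limma 3.58.1 in R 4.3.3 with an intensity trend on log2(normalised count + 1), which understates changes of low genes, for 16688 genes with a mean of at least 10. Calls have a Benjamini-Hochberg adjusted p below 0.05 over all of them. Fold changes are RH2hKO over RH2hWT. A simulation of this comparison (16409 genes) set 67 genes to change 1.5-fold and 67 to change 2-fold. By limma 68.7% of the first set and 94.0% of the second were found. These shares were not split by expression level. Whether they hold for low genes, or where libraries lie apart as RH2hKO replicate 8 and RH2hWT replicate 1 do, was not tested. On the recovered reads edgeR 4.0.16 called 245 genes and DESeq2 1.42.0 called 554, beside 234 by limma. The fit was repeated with other pseudocounts (0.5, 5), filters (none, 50), scalings (quantile, equal totals) and variance models (array weights, no trend), without each library, and without RH2hWT replicate 1 and RH2hKO replicate 8. Copies were found with blastn 2.17.0. For Aldoa, the identifier with the higher mean was used.

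Each library is a separate mouse per the labels, and p-values measure that spread. Read totals cover counting error only, since PCR reads are not independent molecules. Library pairs of 1 group differed by 14.0 to 45.6 times sampling noise, so none was counted as a copy. The genes and lists were chosen with earlier results of these data known. Values per library are given for genes past the threshold among the 34, for Tigar and for genes whose groups do not overlap. The highest gene of each other step is given per library or as mean ± SD. From other lists, genes past the threshold are given as mean ± SD, and a list without any has its 2 most abundant genes named. Genes named outside this rule are marked or stand beside a result that turns on them.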

Additional observations from a re-analysis of the deposited data

Results flagged for a closer look

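In 4 of 68 groups of 4 libraries (34 genes in each genotype) 1 library lay apart from the others by Dixon's criterion, where chance gives about 1 in 20, or 3.4. All 4 were in RH2hWT libraries. Pfkm stood at 915.5 normalised counts in RH2hWT replicate 1, while the other RH2hWT libraries lay between 614.9 and 663.4. Gapdh stood at 758.3 in RH2hWT replicate 3, against 546.3 to 574.3 in the others. Tkt stood at 37597.2 in RH2hWT replicate 3, against 42745.3 to 43750.4 in the others. Rpia stood at 4582.2 in RH2hWT replicate 3, against 5601.0 to 5783.8 in the others. RH2hWT replicate 3 also held the lowest RH2hWT value for 21 of the 34 genes.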

How the results depend on the processing

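Over 19 alternatives, Pfkfb4 was called lower in each, with log2 fold changes of -0.88 to -0.73 and adjusted p of 4.08e-06 to 0.0429. Tigar was called in none of them, at 0.12 to 0.23 with adjusted p of 0.274 to 0.768. The median over the 34 genes moved by less than its spread between libraries in all 19. Among all genes, 234 were called; DESeq2 called 554 (411 higher), array weights 1001 (547 higher), no intensity trend 104 (93 higher), and leaving out RH2hWT replicate 1 and RH2hKO replicate 8 together 1445 (652 higher). Leaving out 1 library gave 135 (RH2hKO replicate 7) to 569 (RH2hKO replicate 8), with 370 without RH2hWT replicate 1, 152 without RH2hKO replicate 6, 155 without RH2hWT replicate 2 and 137 without RH2hWT replicate 4. Of the 34 genes, 2 were called higher (Pfkm, Gapdh) and 2 lower (Pfkfb4, Mpc2) with array weights, and 1 higher (Pfkm) and 3 lower (Pfkfb4, Mpc2, Rpe) without both libraries. Leaving out 1 library gave 0 to 1 higher, the 1 being Pfkm without RH2hWT replicate 1. The causes were not tested.

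Signs turned for genes near 0, none of them called. Hk3 was at 0.00043 with array weights, 0.0069 by edgeR, 0.029 at equal totals, 0.038 with quantile normalisation and 0.046 without both libraries. At equal totals Pdha1 was at 0.0027, Pfkp at 0.011 and Tkt at 0.024. Pdk2 was at -0.016 with quantile normalisation. Without both libraries Pdha1 was at 0.021, Pdk2 at -0.016 and Tkt at 0.0028. Leaving out 1 library gave -0.034 to 0.059 for Hk2, -0.044 to 0.061 for Hk3, -0.033 to 0.13 for Ldha, -0.085 to 0.013 for Pdha1, -0.025 to 0.17 for Pdk2, -0.075 to 0.0057 for Pfkp, -0.062 to 0.011 for Tkt and -0.030 to 0.060 for Tpi1. No paired analysis by litter was possible because the sample labels used here do not say which mice shared a litter. The replicate numbers, which the groups do not share, do not give it. Copies, overlapping genes and the unknown strand setting limit what the rows of Gapdh, Pgk1, Pgam1, Mpc1 and Pfkm measure. They also limit the rows of Eno1, Gpi1, Ldhb and Pkm, whose copies held 47.6%, 44.6%, 44.5% and 30.9% of the sum. Pfkp, which overlaps Pitrm1, shares the limit, and other rows with copies or overlaps are not free of it.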
